A study of Mus musculus with 12 samples.

Results

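The 4 GFP-positive brown adipocyte libraries among the 12 RNA sequencing libraries of this mouse series were compared: 2 from cells traced with Ucp1-iCre and 2 from cells traced with Myf5-Cre. All libraries of a driver that carry the brown adipocyte label were taken, with no choice on measured values. The Myf5-traced group came from Myf5-Cre-ROSAmTmG mice and the Ucp1-traced group from Ucp1-iCre-ROSAmTmG mice. Both were C57BL/6 virgin females of 8 weeks, and both carry the ROSAmTmG reporter, which replaces a red membrane protein with a green one once the recombinase has acted. Myf5-Cre therefore marks cells whose ancestors used the promoter of a myogenic factor, and Ucp1-iCre marks cells in which the promoter of a brown fat gene has itself been active. Driver and mouse line change together, so they cannot be told apart in this comparison. The cells were sorted by FACS, RNA was extracted at once, and cDNA was amplified from low input. No label gives the fat depot, the number of animals behind a library or the gate for brown adipocytes, so a p-value reflects the spread among these libraries alone, and that spread may be technical. The other libraries are sorted mammary myoepithelial cells at day 10 of lactation, of which the 4 GFP-negative ones (2 from each line) serve below as a second comparison of the same mouse lines.

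Brown adipocytes burn fatty acids to make heat. Noradrenaline acts through beta-adrenergic receptors and cyclic AMP to release fatty acids from lipid droplets, and these fuel the mitochondria and open uncoupling protein 1 (UCP1), which lets protons return without making ATP. Much of the interscapular brown fat descends from precursors that once used Myf5 and that also give rise to skeletal muscle, while UCP1 appears only once a cell has become a thermogenic adipocyte.

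The libraries held 11027738 to 15816710 counts, and 14981 and 15363 genes had a count in the Myf5-traced libraries against 16826 and 16918 in the Ucp1-traced ones. Log2 levels correlated at r = 0.934 between the Myf5-traced replicates and r = 0.906 between the Ucp1-traced replicates, against 0.641 to 0.860 between groups (13154 genes). Genes of the mitochondrial chromosome took 23.9% and 21.4% of the Myf5-traced counts, and 36.0% and 12.6% of the Ucp1-traced counts, so Ucp1-traced replicate 1 and replicate 2 lay on either side of the other group. All levels below are counts-per-million (CPM) scaled by TMM factors, which are not corrected for gene length, and are given in the order Myf5-traced replicates 1 and 2, then Ucp1-traced replicates 1 and 2.

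The label was checked against the markers of brown adipocytes and of other cells. The brown fat markers Ucp1, Cidea, Cox8b, Elovl3, Dio2 and Ppargc1a and the adipocyte markers Adipoq, Plin1, Fabp4, Pparg, Lipe and Cidec were detected in every library. Of the 12 mammary epithelial and milk genes, 7 (the keratins Krt5, Krt14 and Krt17 and the milk genes Csn1s1, Csn2, Csn3 and Glycam1) were at 0 in all 4 libraries. The sum of the 12 was 0.0894 and 0.141 CPM in the Myf5-traced libraries and 2.00 and 1.01 CPM in the Ucp1-traced ones, with Lalba, the milk protein alpha-lactalbumin, at 2 counts over the former group and 26 over the latter. Myf5 itself (ENSMUSG00000000435) was at 0 in all 4, which allows up to 0.190 to 0.272 CPM per library on the raw totals (3 counts, counting error only). Its silence is not a check of the trace, because the reporter records past use of the promoter. Endothelial markers were present in every library and were not equal between groups: Pecam1, an adhesion molecule of endothelial cells, was at 0.805 and 44.0 CPM in the Myf5-traced libraries and at 327 and 281 CPM in the Ucp1-traced libraries. Values for that and the other cell types stand beside the results that they accompany.

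Which genes differ between brown adipocytes traced through the 2 drivers was tested with edgeR over all 13154 genes that passed the count filter. The test called 755 genes (5.74% of those tested), of which 608 (4.62%) rose and 147 (1.12%) fell in the Ucp1-traced cells. The genes that fell included factors and enzymes of thermogenesis and fat burning (Kcnk3, Fabp3, Ucp3, Esrra, Ppara, Hadha, Ehhadh, Pdk4). The genes that rose included immediate early and heat shock genes (Egr1, Ier3, Hspa1a) and genes of pericytes (Kcnj8, Abcc9, Acta2). The median log2 fold change over all tested genes was 0.07. Among the risers, 70 had no count in either Myf5-traced library, and among those that fell 1 had no count in either Ucp1-traced library.

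The calls stood close to the threshold. Every adjusted p lay between 0.0396 and the threshold of 0.05, and 4000 genes had an unadjusted p under 0.05. Without Ucp1-traced replicate 1 no gene was called (3224 at an unadjusted p under 0.05), and without Ucp1-traced replicate 2 the test called 2963 genes, of which 1226 rose and 1737 fell, so each direction below rests on values given for both libraries. Without Myf5-traced replicate 1 it called 1382 genes and without Myf5-traced replicate 2 it called 1786.

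**Figure D1:**
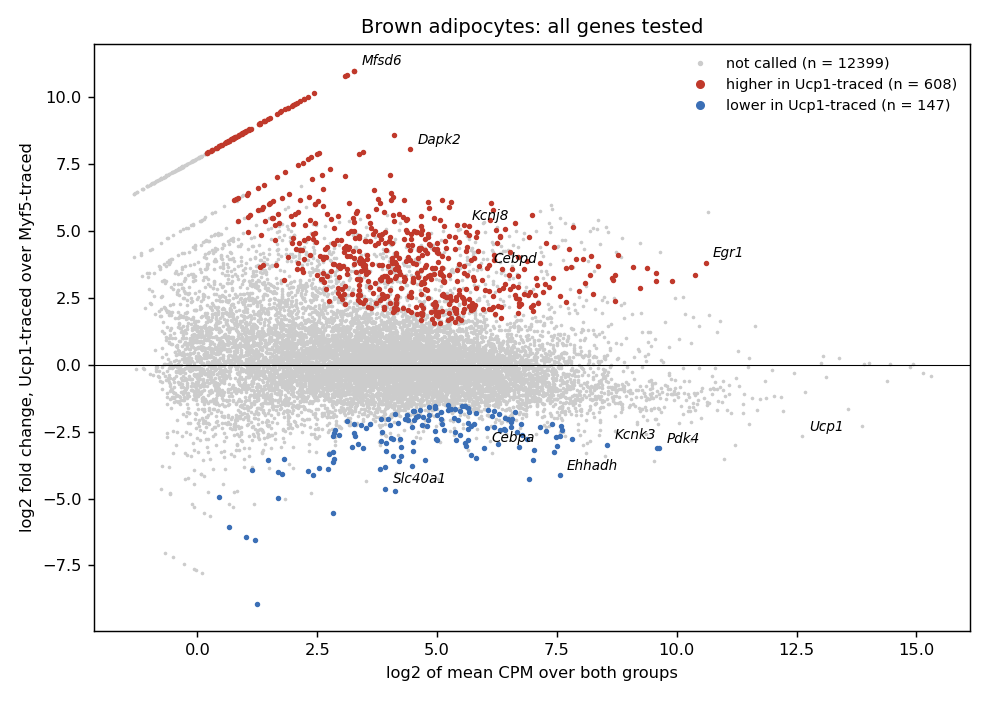
Log2 fold change (Ucp1-traced over Myf5-traced, edgeR) against the log2 of the mean CPM for the 13154 genes tested, each point 1 gene, with 608 called genes that rose in red, 147 that fell in blue and the others in grey. The straight band at the top left holds genes without a count in the Myf5-traced libraries, whose fitted fold is no measured ratio; Kcnk3 and Pdk4 are among the abundant genes that fell.

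Most genes of the thermogenic program were lower in the Ucp1-traced cells, the driver gene Ucp1 among them. Ucp1 (ENSMUSG00000031710, mm10 chromosome 8, 83290352 to 83298452, plus strand) was at 9211 and 12641 CPM in the Myf5-traced libraries and at 789 and 2624 CPM in the Ucp1-traced libraries. The groups did not overlap, yet the difference of log2 -2.68 (SE 1.04) did not pass the test (edgeR adjusted p = 0.147). Of 24 listed thermogenic genes 21 were tested, and 3 of those fell and none rose. Over all tested genes 1.12% fell and 4.62% rose, the shares to set beside the calls in this and the later lists. The median log2 fold change of the 21 was -1.74, against 0.07 over all genes. Of them 19 lay lower without overlap, where 31% of all tested genes did, and 1 lay higher without overlap, where 36.5% did. The median was -1.29 and none of the 21 was called without Ucp1-traced replicate 1, and without Ucp1-traced replicate 2 it was -3.06 and 18 fell. The exception to the lower levels was Gatm, which makes a precursor of creatine and was at 0.358, 0, 1.39 and 2.83 CPM. In bulk libraries, fewer cells of a type and less RNA per cell cannot be told apart, and this holds for every list below.

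The 3 called thermogenic genes encode a potassium channel, a fatty acid carrier and a mitochondrial carrier. Kcnk3, a two-pore potassium channel of brown adipocytes (ENSMUSG00000049265, chromosome 5, 30588170 to 30625271), was at 546 and 783 CPM against 49.2 and 118 CPM. It fell by 2.99 on the log2 scale, a 7.95-fold lower level (SE 0.614, edgeR adjusted p = 0.0480). Fabp3, a fatty acid carrier of heart, muscle and brown fat (ENSMUSG00000028773, chromosome 4, 130308595 to 130315463), was at 177 and 198 CPM against 25.2 and 19.6 CPM. It fell by 3.07 (SE 0.389, edgeR adjusted p = 0.0396), but 37.5% of its 31-base sequences also occur in other genes, so its counts are uncertain. Ucp3, a mitochondrial carrier related to UCP1 (ENSMUSG00000032942, chromosome 7, 100472990 to 100486432), was at 225 and 245 CPM against 31.6 and 62.8 CPM and fell by 2.32 (SE 0.477, edgeR adjusted p = 0.0480). In all 3 genes both Ucp1-traced libraries lay below both Myf5-traced ones.

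Other thermogenic genes missed the threshold with fold changes of like size. Dio2, which activates thyroid hormone inside the brown adipocyte (ENSMUSG00000007682, chromosome 12, 90724552 to 90738438), was at 16.2 and 33.6 CPM against 1.39 and 4.78 CPM (log2 -2.99, SE 0.711, edgeR adjusted p = 0.0582). Adrb3, the beta receptor of adipocytes, was at 521 and 500 CPM against 26.9 and 115 CPM (log2 -2.85, edgeR adjusted p = 0.0662). Slc27a2, a fatty acid transporter and acyl-CoA synthetase, was at 397 and 605 CPM against 14.1 and 86.3 CPM (log2 -3.32, edgeR adjusted p = 0.0695). Cidea, a lipid droplet protein that marks brown fat, was at 2742 and 3155 against 677 and 2095 CPM (log2 -1.09, edgeR adjusted p = 0.383). Elovl3, a fatty acid elongase, was at 1215 and 1848 against 352 and 1114 CPM (log2 -1.06, edgeR adjusted p = 0.363). For Cidea, Elovl3 and Ucp1, Ucp1-traced replicate 2 lay about midway on a log axis between replicate 1 and the Myf5-traced libraries or closer to the latter, as the plot of fat genes by library shows.

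**Figure D2:**
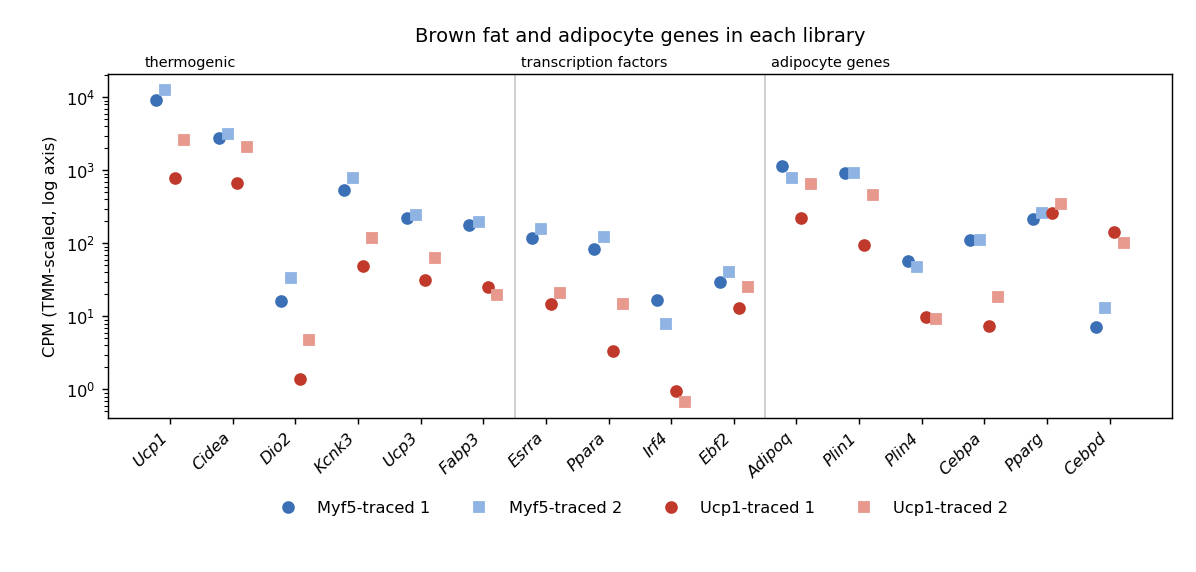
CPM on a log axis of 16 genes in each of the 4 libraries, with circles for replicate 1, squares for replicate 2, blue for Myf5-traced and red for Ucp1-traced cells. Both red points lie below both blue ones for Ucp1, Cidea, Dio2, Kcnk3, Ucp3 and Fabp3, Pparg is nearly level (214 and 258 against 264 and 346 CPM), and Cebpd is turned the other way.

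The promoters of 2 thermogenic genes are shown because both are known to be induced through cyclic AMP and both lay lower in the 2 Ucp1-traced libraries without a call. The sequences are the 250 bases before the RefSeq start site on GRCm38.p6, read 5′ to 3′ on the gene's strand. Ucp1 lies at chr8:83290098-83290347 on the plus strand, and Dio2 at chr12:90739039-90739288 on the minus strand. Capitals mark a match to the cyclic AMP response element TGACGTCA.
Ucp1: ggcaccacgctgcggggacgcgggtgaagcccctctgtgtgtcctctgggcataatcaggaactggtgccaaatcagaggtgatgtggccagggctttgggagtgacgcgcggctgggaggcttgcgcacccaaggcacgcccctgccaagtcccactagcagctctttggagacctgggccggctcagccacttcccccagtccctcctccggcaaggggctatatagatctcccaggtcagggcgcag
Dio2: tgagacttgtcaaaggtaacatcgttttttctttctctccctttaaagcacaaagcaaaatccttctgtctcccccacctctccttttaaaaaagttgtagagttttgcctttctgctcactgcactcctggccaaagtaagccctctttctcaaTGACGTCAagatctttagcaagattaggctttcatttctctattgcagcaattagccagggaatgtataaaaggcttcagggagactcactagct

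The element was searched on both strands in the 250-base windows of 27025 genes and was found in 1.77% of them. Of the 24 thermogenic genes 19 had a window, and Dio2 was the 1 with the element. The Ucp1 window held none of these letters, which says nothing of sites farther from the start. In the list of immediate early genes described below, 17 of 19 had a window and 2 (Dusp1 and Btg2) held the element. Within these windows few members of either list shared the element.

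Among the transcription factors of brown fat, the 3 that fell act on oxidative metabolism and on the response to fasting and cold. Of 25 listed factors and lineage genes 17 were tested, 3 fell (1.12% of all genes did) and none rose (4.62% of all), and the median log2 was -0.88. Of the 17, 10 lay lower without overlap (31% of all) and 4 higher (36.5% of all). That median was -1.06 without Ucp1-traced replicate 1 and -0.57 without Ucp1-traced replicate 2. Esrra, the nuclear receptor ERR alpha that drives mitochondrial genes (ENSMUSG00000024955, chromosome 19, 6910977 to 6921813), was at 117 and 156 CPM against 14.7 and 20.6 CPM, and fell by 2.95 (SE 0.40, edgeR adjusted p = 0.0396). Ppara, the nuclear receptor that senses fatty acids (ENSMUSG00000022383, chromosome 15, 85734983 to 85802819), was at 84.7 and 122 CPM against 3.31 and 14.9 CPM, and fell by 3.50 (SE 0.734, edgeR adjusted p = 0.0497). Irf4, a factor of fasting lipolysis and thermogenesis (ENSMUSG00000021356, chromosome 13, 30749226 to 30766976), was at 16.9 and 7.89 CPM against 0.959 and 0.674 CPM, and fell by 3.92 (SE 0.664, edgeR adjusted p = 0.0396).

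The factors that set brown fat identity gave no call. Prdm16, a coregulator that directs precursors to brown fat, was at 11 and 16.6 CPM against 23.9 and 19.2 CPM (log2 0.64, edgeR adjusted p = 0.313). Ebf2, a selective factor of brown precursors and adipocytes, was at 29.8 and 40.4 CPM against 13.1 and 25.0 CPM (log2 -0.88, edgeR adjusted p = 0.22). Ppargc1a, the cold-induced coactivator of mitochondrial genes, was at 51.1 and 84.7 CPM against 8.28 and 32.3 CPM (log2 -1.74, edgeR adjusted p = 0.144). Thra, a thyroid hormone receptor, was at 74.8 and 73.9 CPM against 28.0 and 24.1 CPM, just short of a call (log2 -1.51, edgeR adjusted p = 0.0508). The homeobox genes Meox2 (0.0894 and 5.0 against 101 and 67.7 CPM) and Meox1 (0 and 1.97 against 36.0 and 18.1 CPM) were higher without overlap and were not called (log2 5.01 and 4.71, edgeR adjusted p = 0.0612 and 0.0654). Both are known from somites and also from endothelial or mesenchymal cells. In the Myf5-traced group their higher value fell in replicate 2, the library with the higher endothelial markers. Which cells gave these counts was not tested.

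A pair of C/EBP factors of adipogenesis changed in opposite directions. Cebpa, which maintains the mature adipocyte (ENSMUSG00000034957, chromosome 7, 35119293 to 35121928), was at 113 CPM in both Myf5-traced libraries and at 7.5 and 18.7 CPM in the Ucp1-traced ones. It fell by 3.10 (SE 0.521, edgeR adjusted p = 0.0396). Cebpd, an early and stress-induced member (ENSMUSG00000071637, chromosome 16, 15887286 to 15891031), was at 7.07 and 13.0 CPM against 141 and 100.3 CPM, and rose by 3.58 (SE 0.471, edgeR adjusted p = 0.0396), a 12-fold higher level. The Cebpd to Cebpa ratio of counts within a library was 0.0627 and 0.116 in the Myf5-traced cells and 18.9 and 5.38 in the Ucp1-traced cells. Cebpb, which acts with Cebpd early in adipogenesis, was at 1666 and 2186 CPM against 600 and 1483 CPM (log2 -0.89, edgeR adjusted p = 0.420).

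All 29 listed adipocyte genes were tested: 1 rose (Cebpd), 2 fell (Cebpa and Plin4), and the median log2 was -1.27. Of the 29, 21 lay lower without overlap (31% of all genes did) and 4 higher (36.5% of all). Without Ucp1-traced replicate 1 the median was -0.90 with no call, and without Ucp1-traced replicate 2 it was -2.51 with 22 that fell and 2 that rose. Plin4, a lipid droplet coat protein (ENSMUSG00000002831, chromosome 17, 56100591 to 56109803), was at 57.8 and 46.8 CPM against 9.68 and 9.16 CPM and fell by 2.47 (SE 0.340, edgeR adjusted p = 0.0396). Adipoq, the hormone adiponectin, was at 1153 and 789 CPM against 220 and 651 CPM (log2 -1.16, edgeR adjusted p = 0.290). Lipe, the hormone-sensitive lipase, was at 968 and 942 CPM against 133 and 276 CPM (log2 -2.22, edgeR adjusted p = 0.0652). Pck1, which feeds glycerol synthesis, was at 3807 and 3674 CPM against 93.8 and 563 CPM (log2 -3.51, edgeR adjusted p = 0.0820).

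A second set of adipocyte genes did not share the lower levels. Pparg, the master factor of adipogenesis, was at 214 and 258 CPM against 264 and 346 CPM (log2 0.37, edgeR adjusted p = 0.581). Cd36, a fatty acid uptake receptor, was at 919 and 934 CPM against 3232 and 2545 CPM (log2 1.64, edgeR adjusted p = 0.146). Fabp4, the main fatty acid carrier of adipocytes, was at 8297 and 6844 CPM against 12914 and 6146 CPM (log2 0.33, edgeR adjusted p = 0.842), and its sign turned without Ucp1-traced replicate 1 (log2 -0.37). Endothelial cells are also known to use Cd36, Fabp4 and Pparg, and the endothelial markers were higher in the same libraries. Their part in these values was not tested.

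**Figure D3:**
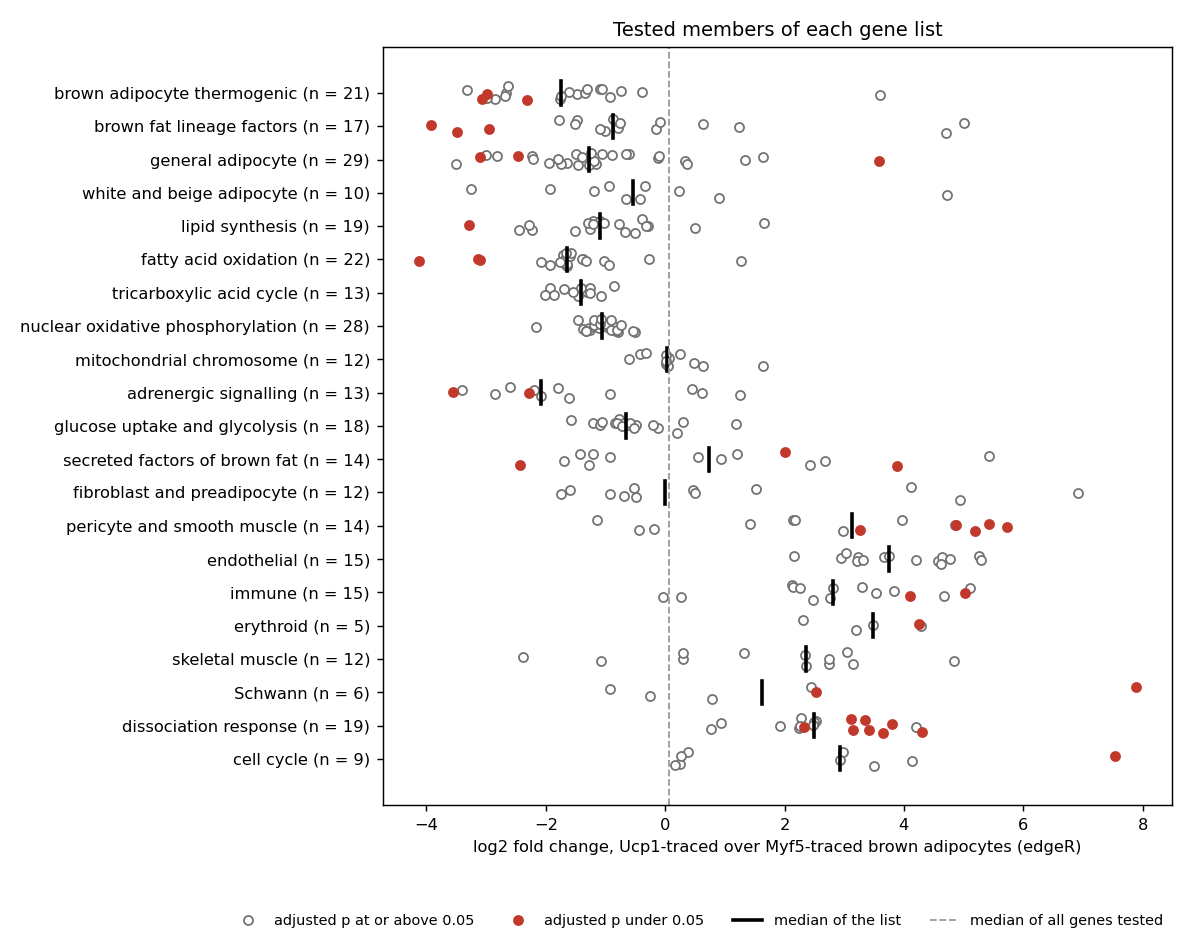
Log2 fold change of each tested member of 21 gene lists, 1 point per gene, filled red where the adjusted p is under 0.05, with a black bar at the median of the list and a dashed line at the median of all genes tested (0.07). The lists of thermogenesis, fatty acid oxidation, the tricarboxylic acid cycle and nuclear oxidative phosphorylation lie mostly left of the line, and those of pericytes, endothelium and the dissociation response right of it.

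Genes for burning fat lay mostly lower, and those that fell encode a peroxisomal enzyme, a mitochondrial enzyme and a fuel switch. Of 23 listed genes of fatty acid oxidation 22 were tested, 3 fell and none rose, the median log2 was -1.65, and 20 lay lower without overlap (31% of all genes did). Without Ucp1-traced replicate 1 the median was -1.19 with no call, and without Ucp1-traced replicate 2 it was -2.44 and 19 fell. Ehhadh, the peroxisomal bifunctional enzyme (ENSMUSG00000022853, chromosome 16, 21761287 to 21787807), was at 299 and 414 CPM against 9.24 and 31.3 CPM and fell by 4.13, to a 17.5-fold lower level (SE 0.707, edgeR adjusted p = 0.0396). Hadha, the alpha subunit of the mitochondrial trifunctional protein (ENSMUSG00000025745, chromosome 5, 30118304 to 30155162), was at 1310 and 1464 CPM against 162 CPM in both Ucp1-traced libraries and fell by 3.10 (SE 0.537, edgeR adjusted p = 0.0396). Pdk4, which holds glucose carbon out of the tricarboxylic acid cycle (ENSMUSG00000019577, chromosome 6, 5483351 to 5496309), was at 1443 and 1405 CPM against 109.7 and 215 CPM and fell by 3.13 (SE 0.613, edgeR adjusted p = 0.0446). Esrra, Ppara and these enzymes were lower in both Ucp1-traced libraries.

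The mitochondrial machinery encoded in the nucleus lay lower in both Ucp1-traced libraries, and none of it was called. All 13 tricarboxylic acid cycle genes (median log2 -1.42, range -2.01 to -0.86) and all 28 nuclear subunits of oxidative phosphorylation (median log2 -1.06, range -2.16 to -0.51) lay lower without overlap, where 31% of all genes did. These medians were -0.90 and -0.71, with no call, without Ucp1-traced replicate 1. Without Ucp1-traced replicate 2 they were -2.47 and -1.69, and 13 of 13 and 25 of 28 fell. Atp5b, the catalytic beta subunit of ATP synthase, was at 9093 and 8532 CPM against 2114 and 6483 CPM (log2 -1.04, edgeR adjusted p = 0.501). The 12 tested genes of the mitochondrial chromosome had a median log2 of 0.03 and overlapped between groups, and the sign of that median changed in 8 of 16 other settings. For instance mt-Cytb, a subunit of complex III, was at 43137 and 36996 CPM against 50494 and 13533 CPM. The summed counts of the mitochondrial chromosome over those of the nuclear subunits were 5.25 and 4.49 in the Myf5-traced libraries and 23.3 and 3.15 in the Ucp1-traced ones, so 1 library stood apart.

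Ratios within a library set these groups of genes against the adipocyte list as a whole. The geometric mean of the 29 adipocyte genes was 786, 751, 216 and 475 CPM. Over that mean, Ucp1 stood at 11.7 and 16.8 in the Myf5-traced libraries and at 3.65 and 5.53 in the Ucp1-traced libraries, and Kcnk3 at 0.695 and 1.04 against 0.228 and 0.248. Cidea, by the same measure, stood at 3.49 and 4.20 against 3.14 and 4.41, and the geometric mean of nuclear oxidative phosphorylation at 1.32 and 1.42 against 1.57 and 1.36. Ucp1 and Kcnk3 were thus lower also relative to this mean, while Cidea and oxidative phosphorylation overlapped between groups on this scale. The mean includes genes that did not share the lower levels, among them Cebpd, Cd36, Fabp4 and Pparg. The size of the Ucp1 difference depended on the reference gene. Over Plin1, a lipid droplet coat protein, Ucp1 stood at 9.96 and 13.7 against 8.39 and 5.71. Over Cidea it stood at 3.36 and 4.01 against 1.17 and 1.25. With 2 libraries against 2, the smallest two-sided exact permutation p for such a ratio is 0.333, so these ratios are a description.

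Among genes that carry the adrenergic signal to lipolysis, 2 of the 13 tested (of 14 listed) fell and none rose (median log2 -2.09). Of the 13, 10 lay lower without overlap (31% of all genes did) and 2 higher (36.5% of all), among them Crem, a factor that answers cyclic AMP, at 17.4 and 17.5 CPM against 26.1 and 27.7 CPM. There was no call without Ucp1-traced replicate 1, without either Myf5-traced library 5 fell, and without Ucp1-traced replicate 2 there were 9 that fell and 1 that rose. Prkaca, the catalytic subunit of the kinase that cyclic AMP activates (ENSMUSG00000005469, chromosome 8, 83972993 to 83996443), was at 293 and 343 CPM against 53.0 and 77.5 CPM and fell by 2.28 (SE 0.432, edgeR adjusted p = 0.0426). Pde3b, the phosphodiesterase through which insulin lowers cyclic AMP (ENSMUSG00000030671, chromosome 7, 114415281 to 114539251), was at 258 and 217 CPM against 13.3 and 26.9 CPM and fell by 3.56 (SE 0.505, edgeR adjusted p = 0.0396). An activator and a brake of the same pathway thus fell together.

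Fat synthesis and sugar use gave 1 call together. Of 19 genes of lipid synthesis, all tested, 1 fell (1.12% of all genes did), none rose and the median log2 was -1.10. Of the 19, 11 lay lower without overlap (31% of all) and 1 higher (36.5% of all). The gene that fell was Gpam, the first enzyme of triglyceride synthesis, at 326 and 307 CPM against 14.4 and 50.7 CPM (log2 -3.28, SE 0.676, edgeR adjusted p = 0.0480). The 18 genes of glucose uptake and glycolysis gave no call (median log2 -0.66), and 9 of them lay lower without overlap (31% of all genes did). The medians of these lists were -0.55 and -0.16, with no call, without Ucp1-traced replicate 1, and without Ucp1-traced replicate 2 they were -2.28 and -1.59, with 14 genes of each list that fell. The 15 listed genes of white and beige adipocytes, of which 10 were tested, gave no call either (median log2 -0.54). Retn, the adipocyte hormone resistin, was at 370 and 159 CPM against 68.9 and 70.2 CPM (log2 -1.93, edgeR adjusted p = 0.0695).

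Of 16 secreted factors of brown fat 14 were tested, of which 2 rose (4.62% of all genes did) and 1 fell (1.12% of all). Their median log2 was 0.74, and it turned to -0.08 without Ucp1-traced replicate 2, when 5 rose and 4 fell. No gene was called without Ucp1-traced replicate 1, and without Myf5-traced replicate 2 there were 5 that rose and 1 that fell. Vegfa, the growth factor for blood vessels, was at 284 and 378 CPM against 43.7 and 78.8 CPM and fell by 2.44 (SE 0.487, edgeR adjusted p = 0.0464). Adm, a vasodilator peptide, was at 2.95 and 2.47 CPM against 57.4 and 23.2 CPM and rose by 3.89 (SE 0.565, edgeR adjusted p = 0.0396). Rarres2, the adipokine chemerin, was at 15.2 and 18.1 CPM against 72.7 and 61.2 CPM and rose by 2.01 (SE 0.337, edgeR adjusted p = 0.0396). Endothelial cells are known to make adrenomedullin, and their markers were higher in the same libraries. Between the 2 Myf5-traced libraries the endothelial sum differed (100.4 and 543 CPM) where Adm was nearly level. The part of these cells in the Adm values was not tested.

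Transcripts of the vessel wall were higher in the Ucp1-traced libraries. The summed level of 15 endothelial genes was 100.4 and 543 CPM in the Myf5-traced libraries and 5050 and 2605 CPM in the Ucp1-traced ones. All 15 lay higher without overlap (36.5% of all genes did), the median log2 was 3.76, and none was called. Replicate spread was large in the Myf5-traced group: Kdr, the main VEGF receptor, was at 4.11 and 123 CPM against 699.7 and 276 CPM (log2 2.94, SE 1.38, edgeR adjusted p = 0.208). Egfl7, a factor secreted by endothelium, was at 83.6 and 108 CPM against 528 and 334 CPM (log2 2.17, edgeR adjusted p = 0.0511). Without Myf5-traced replicate 2, the library of that group with the higher endothelial sum, 13 of the 15 were called and the median was 7.54. Without Myf5-traced replicate 1 there were 7 calls, without Ucp1-traced replicate 2 there was 1, and without Ucp1-traced replicate 1 there was none.

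Of the 14 pericyte and smooth muscle genes, all tested, 5 rose, none fell and the median log2 was 3.12. Of the 14, 11 lay higher without overlap (36.5% of all genes did) and 2 lower (31% of all): Cspg4, the proteoglycan NG2, at 68.1 and 43.5 CPM against 16.5 and 34.0 CPM, and Des, an intermediate filament of muscle cells, at 53.1 and 60.9 CPM against 30.9 and 53.1 CPM. The calls numbered 7 or 8 without any one of the other libraries, and 0 without Ucp1-traced replicate 1. Kcnj8 and Abcc9 encode the 2 subunits of a potassium channel of pericytes that is gated by ATP. Kcnj8 (ENSMUSG00000030247, chromosome 6, 142564837 to 142571614) was at 0.626 and 4.30 CPM against 95.7 and 88.2 CPM and rose by 5.19 (SE 0.846, edgeR adjusted p = 0.0396). Abcc9, its neighbour on the chromosome (142587862 to 142702315), was at 0.537 and 0.211 CPM against 30.1 and 9.64 CPM and rose by 5.73 (SE 0.865, edgeR adjusted p = 0.0396). Acta2, the smooth muscle actin, was at 1.97 and 1.69 CPM against 69.2 and 38.7 CPM and rose by 4.88 (SE 0.475, edgeR adjusted p = 0.0396). Tagln, an actin-binding protein of smooth muscle, was at 3.67 and 2.18 CPM against 35.2 and 21 CPM and rose by 3.27 (SE 0.507, edgeR adjusted p = 0.0396).

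**Figure D4:**
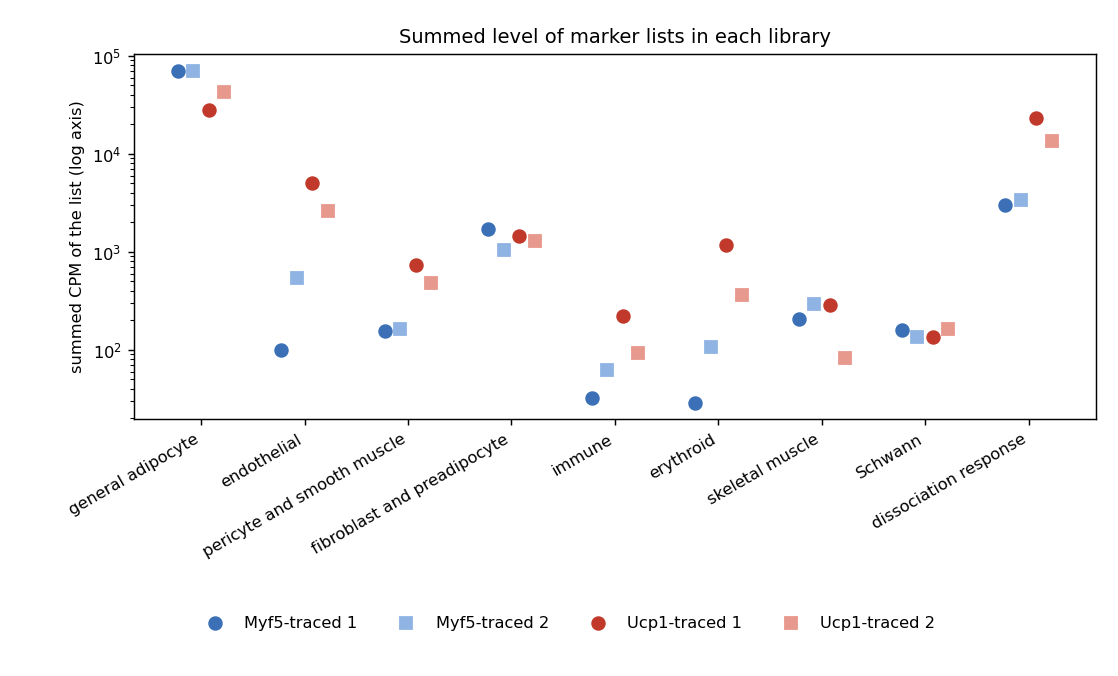
Summed CPM of 9 marker lists on a log axis in each library, with circles for replicate 1, squares for replicate 2, blue for Myf5-traced and red for Ucp1-traced cells. The endothelial, pericyte, immune, erythroid and dissociation sums are higher in both Ucp1-traced libraries and the adipocyte sum is lower in both. The fibroblast, muscle and Schwann sums overlap. The fibroblast sum joins genes that went opposite ways, chiefly Gsn (lower in both Ucp1-traced libraries) and Ly6a (higher in both).

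Blood and immune transcripts were also higher in both Ucp1-traced libraries. Over all tested genes 4.62% rose, the share to set beside each count of risers in this paragraph. The immune sum was 31.9 and 62.9 CPM against 221 and 92.7 CPM over 21 genes, of which 15 were tested and 2 rose (Lyz2, a lysozyme of macrophages, and Cd74, the invariant chain of class II molecules). Their pan-leukocyte marker Ptprc was at 0.268, 1.62, 7.67 and 1.68 CPM. The erythroid sum was 29.0 and 106.5 CPM against 1184 and 365 CPM, and of 5 tested genes (7 listed) Hba-a2, an alpha globin that shares 92.0% of its sequences with other genes, rose. Fibroblast and preadipocyte genes gave no call among 12 tested of 16 (median log2 -0.01, with a sign that changed in 5 of 17 other settings), with Dcn at 8.68, 2.47, 10.0 and 5.39 CPM and Pdgfra at 0, 0, 1.31 and 1.01 CPM. The sum of the 19 skeletal muscle genes was 205 and 292 CPM against 284 and 83.2 CPM, with no call among the 12 tested. Of these, 10 had a log2 above 0 and the median was 2.35, which turned to -1.48 without Ucp1-traced replicate 1, and without Myf5-traced replicate 1 it was 4.19 with 8 that rose and 1 that fell. Their marker Ckm was at 9.30, 0, 46.0 and 1.48 CPM and Myog was at 0 in all 4. Much of the muscle sum in the Myf5-traced libraries was Mb, at 105 and 250 CPM against 15.9 and 52.4 CPM. Its log2 of -2.38 (edgeR adjusted p = 0.0866) was opposite in sign to the median of the list. Of 9 Schwann genes 6 were tested and 2 rose (Egr2, which is also an immediate early gene, and Gfra3, with no count in the Myf5-traced libraries), and the summed level of 158, 135, 136 and 162 CPM overlapped. The part of these cells in the differences between the groups was not tested.

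Immediate early and heat shock genes, which are known to be induced while tissue is dissociated into cells, were higher in the Ucp1-traced libraries. Of 19 such genes, all tested, 8 rose and none fell, 17 lay higher without overlap, and the median log2 was 2.50. Over all genes, 4.62% rose and 36.5% lay higher without overlap. Their sum was 2991 and 3367 CPM against 23113 and 13378 CPM. Ier3, an early gene of survival signalling (ENSMUSG00000003541, chromosome 17, 35821684 to 35822923), was at 32.8 CPM in both Myf5-traced libraries against 602 and 226 CPM and rose by 3.66 (SE 0.612, edgeR adjusted p = 0.0396). Egr1, an immediate early zinc finger factor, was at 220 and 197 CPM against 3689 and 2110 CPM and rose by 3.80 (SE 0.698, edgeR adjusted p = 0.0417). Zfp36, which destabilises cytokine messages, was at 158 and 156 CPM against 1640 and 1085 CPM and rose by 3.12 (SE 0.563, edgeR adjusted p = 0.0411). Hspa1a, an inducible heat shock protein, was at 120.5 and 141 CPM against 1823 and 967 CPM and rose by 3.42 (SE 0.613, edgeR adjusted p = 0.0406). Hspa1a shares 65.7% of its sequences with other genes.

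Without Ucp1-traced replicate 1 the test called 0 of these 19 genes, and without Ucp1-traced replicate 2 it called all 19. It called 2 of them without Myf5-traced replicate 1 and 3 without Myf5-traced replicate 2. Cebpd and Adm, which are also known to answer stress, moved in the same direction and in the same libraries. How far the state of the cells at sorting bears on the other differences was not tested.

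Of 18 cell cycle genes 9 were tested, and Mcm5, a subunit of the replicative helicase, rose (0.0894 and 0 CPM against 10.5 and 7.95 CPM, edgeR adjusted p = 0.0396). All 9 had a log2 above 0, with a median of 2.92 (1.61 to 3.66 when 1 library was left out), and 6 lay higher without overlap, where 36.5% of all genes did. Mki67, a marker of dividing cells that was not tested, was at 0, 0.775, 0.784 and 0 CPM.

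The largest rises were of genes with few or no counts in the Myf5-traced cells. Selp, the adhesion receptor P-selectin of activated endothelium and platelets, had 0 counts there and 28.1 and 5.86 CPM in the Ucp1-traced libraries (edgeR adjusted p = 0.0396). The mean of the Ucp1-traced libraries was at least 143-fold above a floor of 3 counts over the Myf5-traced group. This fold and those that follow take that mean and do not allow for the spread between the Ucp1-traced libraries. Mfsd6, a membrane transporter of unsettled role, had 0 counts against 22.3 and 16.4 CPM, at least 164-fold higher. Klhl4 (0 against 26.1 and 12.5 CPM, at least 163-fold), Tnfsf9, a ligand of T cell costimulation (0 against 24.6 and 10.4 CPM, at least 148-fold), and Ecm2, a matrix protein (0 against 12.8 and 8.63 CPM, at least 90.7-fold), had no count in the Myf5-traced libraries either. Dapk2, a calmodulin-dependent kinase, had 4 counts over both Myf5-traced libraries against 1103 over both Ucp1-traced ones. Tnfaip8l1 (2 against 839 counts), Epha2, an ephrin receptor (2 against 531), Mycn, a MYC family factor (1 against 284), and Apod, a lipid-binding apolipoprotein (2 against 524), completed the 10 largest rises. All 10 have an edgeR adjusted p of 0.0396.

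The largest falls included mitochondrial and metabolic genes beside the adipocyte genes named above. Slc25a42, the mitochondrial carrier of coenzyme A (ENSMUSG00000002346, chromosome 8, 70184340 to 70212305), was at 184 and 275 CPM against 7.41 and 16.4 CPM and fell by 4.26 (SE 0.570, edgeR adjusted p = 0.0396). Slc40a1, the iron exporter ferroportin, was at 29.4 and 28.9 CPM against 1.05 and 1.28 CPM and fell by 4.63 (SE 0.439, edgeR adjusted p = 0.0396). Tst, the mitochondrial sulfurtransferase rhodanese, was at 31.9 and 20.9 CPM against 2.27 and 1.28 CPM and fell by 3.90 (SE 0.523, edgeR adjusted p = 0.0396). Cpne5, a calcium-dependent membrane-binding protein, was at 15.9 and 51.4 CPM against 0.436 and 2.02 CPM and fell by 4.73. Cdsn, an adhesion protein of cornified skin, was at 17.6 and 10.2 CPM against 0 and 0.539 CPM and fell by 5.54. Cntfr, the receptor of ciliary neurotrophic factor, fell by 4.13, Kctd15 by 3.88 and Tmeff1 by 3.82. Ehhadh and Irf4, given above, are the other two of the 10 largest falls.

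The same pair of mouse lines was compared in the GFP-negative myoepithelial cells, in which the driver had left no label. There edgeR called 0 of 16117 genes (0%), with a lowest adjusted p of 0.0810 and 1664 genes at an unadjusted p under 0.05, while DESeq2 called 354. Without Myf5 GFP-negative replicate 2, edgeR called 1246. Of the 755 genes called in brown adipocytes, 48.9% had the same sign in the GFP-negative cells.

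The difference of the line effects between brown adipocytes and GFP-negative cells was then tested itself. It was called for 647 genes (4.01%), 543 of them with a higher effect in brown adipocytes (3.37%) and 104 with a lower one (0.645%), and 388 of the 755 were among them. Of the 21 thermogenic genes 4 passed, all negative (Dio2, Slc27a2, Kcnk3 and Fabp3). For Kcnk3 the line effect was log2 -2.99 in brown adipocytes and 3.08 in GFP-negative cells, where it was at 0.880 and 0.723 CPM in the Myf5 line and 7.13 and 6.45 CPM in the Ucp1 line (difference -6.11, SE 0.763, edgeR adjusted p = 0.0167). Ucp1 did not pass (difference -1.05, edgeR adjusted p = 0.652), with at most 2.56 CPM in the GFP-negative cells. Of the 19 dissociation genes 4 passed, all positive, and the median line effect of the list in GFP-negative cells was log2 0.57, against 2.50 in brown adipocytes. The median line effect of the 15 endothelial genes was log2 0.15 in GFP-negative cells, and that of the 28 nuclear oxidative phosphorylation genes was -0.66. For the 14 pericyte and smooth muscle genes it was 1.43 and for the 12 skeletal muscle genes 2.21, against 3.12 and 2.35 in brown adipocytes. Kcnj8 and Abcc9 had line effects of log2 1.65 and 1.97 in GFP-negative cells. Their differences of 3.51 and 3.73 did not pass (edgeR adjusted p = 0.0949 and 0.0549). The difference lost every call without any one of Myf5-traced replicate 1, Ucp1-traced replicate 1 or either Ucp1 GFP-negative library, and it rose to 2678 calls without Myf5 GFP-negative replicate 2.

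**Figure D5:**
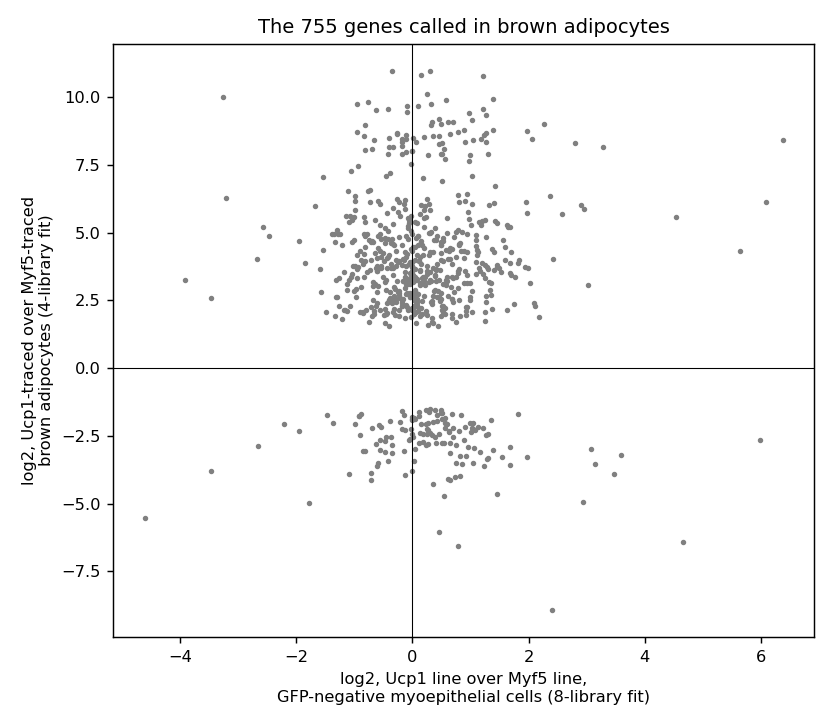
Line effect in GFP-negative myoepithelial cells (x axis, log2, 8-library fit) against that in brown adipocytes (y axis, log2, 4-library fit) for the 755 genes called in brown adipocytes, each point 1 gene. Points spread to both sides of 0 on the x axis, with 48.9% of the genes in the quadrants of equal sign.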

How the data were processed

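Bulk RNA of sorted cells was amplified with SMART-Seq v4 and sequenced on an Illumina HiSeq instrument, per the labels' protocols. TopHat, HTSeq, DESeq2 and mm10 are named in the submitters' processing notes; no label gives a version, an annotation release, a strand setting or a rule for multiply mapped reads. The authors deposited raw read counts per gene and library, which were joined on the gene identifier (38924 genes, 37607 with a GENCODE M21 symbol). The members and the gene lists were chosen with earlier results of these data known.

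The main test was edgeR's quasi-likelihood test on the 4 brown adipocyte libraries, with TMM factors, filterByExpr at a minimum count of 10 and p-values adjusted by Benjamini-Hochberg across every tested gene (threshold 0.05). The GFP-negative myoepithelial libraries were added for the line comparison (8 libraries). A standard error is the log2 fold change over the square root of F. On data simulated for the brown adipocyte comparison (13154 genes, 50 changed per fold size), the test called 0% of changes of 2-fold, 32% of 4-fold, 78% of 8-fold and 98% of 16-fold. Smaller changes were thus mostly beyond it. The simulation gave both groups the same dispersion. The real Ucp1-traced replicates differed more than the Myf5-traced ones (chi-square per degree of freedom 300 against 37.8), so these shares may not hold for the data. A gene at 0 lies under 3 counts (the upper 95% limit), which is 0.190 to 0.272 CPM; intervals cover counting error only.

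Named genes are the drivers, the 10 largest rises and falls among called genes without overlap and with at least 10 CPM, up to 4 called members per list of smallest adjusted p (or the 2 most abundant), any member of the thermogenic, lineage and adipocyte lists, and the defining markers of other cell types. Krt5, Krt14, Krt17, Csn1s1, Csn2, Csn3, Glycam1, Mki67, Dusp1, Btg2, Myog, Crem, Cspg4, Des, Col1a2, Col3a1, Emcn, Erg and Tyrobp were named after their values were seen. Some results are not reported here. Of the 50 called genes named, 18 have an exon overlapped by another gene, and 4 share over 5% of their 31-base sequences with other genes, which counting could split. Tools were R 4.3.3, edgeR 4.0.16, limma 3.58.1, DESeq2 1.42.0, matplotlib 3.10.9, pandas 2.3.3, numpy 2.4.6 and Python 3.11.15. Alternatives covered the scaling, the filter, the tool, mitochondrial genes, depth, each replicate, pairing and the libraries in the fit.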

Additional observations from a re-analysis of the deposited data

Results flagged for a closer look

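For the genes below, the effect of the mouse line in brown adipocytes differed from that in GFP-negative myoepithelial cells (interaction in edgeR over 8 libraries, adjusted p under 0.05). The values are differences of log2 fold changes, and those of genes at 0 in a group depend on the fit. Most of these genes are named because they were called in the same brown adipocyte libraries, so how many passed is no result about them; over all genes, 4.01% passed. The difference was negative among thermogenic genes, with -7.22 for Dio2, -9.60 for Slc27a2, -6.11 for Kcnk3 and -2.97 for Fabp3. Among factors they were -4.05 for Esrra, -7.45 for Irf4 and -4.31 for Cebpa. Among genes of lipid handling they were -5.29 for Gpam, -5.03 for Retn, -2.67 for Hadha, -4.82 for Ehhadh and -3.83 for Pdk4. They were -5.32 for Cpne5 and -4.67 for Slc25a42. The sizes for Dio2, Slc27a2, Irf4 and Retn rest partly on GFP-negative levels near the floor. In those cells Dio2 was at 0 and 0.0761 CPM in the Myf5 line and at 0.859 and 0.781 CPM in the Ucp1 line. Slc27a2 was at 0 and 0 CPM against 0.495 and 0.390 CPM. The line effects there were log2 4.18 for Dio2, 6.25 for Slc27a2, 3.46 for Irf4 and 3.05 for Retn.

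Genes of other cell types went both ways. Cspg4, Des, Col3a1, Col1a2, Emcn, Erg and Tyrobp are named here because they passed this test. In the pericyte and smooth muscle list 2 differences were positive (4.73 for Acta2 and 3.66 for Tagln) and 2 negative (-3.70 for Cspg4 and -2.90 for Des). In the fibroblast list 2 were negative (-4.16 for Col3a1 and -3.75 for Col1a2). In the endothelial list 2 were positive (6.03 for Emcn and 4.54 for Erg), as were 2 in the immune list (4.47 for Cd74 and 5.96 for Tyrobp) and 2 in the Schwann list (2.86 for Egr2 and 9.28 for Gfra3). In the GFP-negative cells Acta2 was at 3395 to 4775 CPM, Tagln at 1061.5 to 2347 CPM and the endothelial gene Kdr at 817 to 1363 CPM. Which cells gave these counts was not tested, so the difference need not compare 1 cell type in both. Stress and growth genes gave differences of 3.55 for Ier3, 3.70 for Zfp36, 5.68 for Adm and 7.65 for Mcm5. The largest rises gave 11.6 for Mfsd6, 12.3 for Klhl4, 11.6 for Tnfsf9, 10.5 for Selp, 10.8 for Ecm2, 9.41 for Tnfaip8l1, 8.85 for Dapk2, 7.44 for Epha2, 6.70 for Mycn and 7.64 for Apod. All of these were lost without Myf5-traced replicate 1, Ucp1-traced replicate 1 or either Ucp1 GFP-negative library, when no difference was called.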

How the results depend on the processing

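For the 755 calls in brown adipocytes, RLE scaling (723), a minimum count of 30 (880), edgeR's robust option (774), leaving out mitochondrial genes (732) and thinning to the smallest library (785) gave counts within 1.5 times. No filter gave 3218, DESeq2 2785 (both with all 755 among them), limma-voom 1468, all 12 libraries 223 and the 8-library fit 1578; leaving out 1 library gave 0 to 2963, and the rise share went from 80.5% to 41.4% at the latter, without Ucp1-traced replicate 2. With the replicate number as a block the count was 0, and with the numbers crossed, chosen after seeing the data, it was 1999; same-numbered libraries deviated with r = -0.120 across genes, so the numbers are not taken as pairs. In GFP-negative cells no filter gave 1, DESeq2 354 and leaving out 1 library 0 to 1246. For the difference of the line effects DESeq2 gave 2176, all 12 libraries 4, the replicate block 241 and leaving out 1 library 0 to 2678. Signs turned for genes that were not called: leaving out 1 library, the log2 ranged from -0.37 (without Ucp1-traced replicate 1) to 0.69 for Fabp4, from -1.64 to 0.25 (without Ucp1-traced replicate 2) for mt-Cytb, from -1.75 (without Ucp1-traced replicate 1) to 11.3, a fit against 0 counts, for Ckm, from -0.19 (without Myf5-traced replicate 2) to 1.62 for Dcn, which was also at -0.13 without Ucp1-traced replicate 1, and from -1.32 to 0.37 (without Myf5-traced replicate 1) for Col1a2. Of the 50 called genes named, 50 lost the call without Ucp1-traced replicate 1 and 50 under the block, and none turned its sign under any of these settings. The cause was not tested. Depth limits genes with few counts: a gene under 0.190 to 0.272 CPM in a library is not distinguished from 0.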
